A study of Bos taurus with 18 samples.

Results

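S100A8 and S100A9 are the genes of the 2 subunits of calprotectin, and both were among the 24616 genes measured in rumen papillae, the finger-like folds of the rumen lining through which fermentation products are absorbed. They were chosen by name (S100A9, ENSBTAG00000006505, and S100A8, ENSBTAG00000012640), with their lower level in cows fed alfalfa hay already known from these data. Their differences between alfalfa hay and the straw diets are therefore given as a description, without a test. The 18 libraries were those of Holstein cows in lactation, with 6 cows per ration and 3 total mixed rations with alfalfa hay (AH), corn stover (CS) or rice straw (RS) as the main forage. The rations shared their concentrate and corn silage, and the intake, fermentation and papillae of single cows were not analysed here. Each library stood for 1 cow, and cows are named by diet and replicate number.

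Calprotectin is a pair of small calcium-binding proteins that also bind zinc and manganese and so withhold these metals from microbes. Neutrophils and monocytes store it in large amounts, and stratified epithelia such as skin and oral mucosa make it as well, more so when they are irritated or infected. Once released, it is known as a ligand of the receptors TLR4 and AGER. The 2 genes lie in the S100 cluster. In the RefSeq annotation of assembly ARS-UCD2.0, S100A12 lay between them, and PGLYRP4 and PGLYRP3 followed on the side of S100A9.

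Values were CPM, the reads of a gene relative to the sum over the gene annotation in that cow and scaled to a common library size, as the authors deposited them. That sum ran from 16099131 to 32252177 reads. S100A8 had a mean of 5878 CPM over the 18 cows and ranked 9 among all genes by its mean, and S100A9 had a mean of 1312 CPM and ranked 90. A cow gave between 42042 and 263174 reads on S100A8 and between 3504 and 70620 reads on S100A9. The counting error was at most 0.488% of the value for S100A8 and 1.69% for S100A9, so the spread between cows, and not the depth, set the precision of both.

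S100A9 was low in every AH cow. In AH it had a lowest value of 160.8, a median of 463.7 and a highest value of 575.1 CPM. In CS the lowest, median and highest values were 1249, 1467 and 2420 CPM. In RS they were 1131, 1993 and 2167 CPM. The highest AH cow thus stood below the lowest cow of either straw diet, with no overlap. The means were 445.0 CPM ± 151 (SD, n = 6) in AH, 1710.2 CPM ± 498 in CS and 1781 CPM ± 450.4 in RS. The ratio of means was 3.84-fold higher in CS than in AH and 4.00-fold higher in RS than in AH. On the log2 scale AH vs. CS was -1.94 (SE 0.26, and 0.25 for AH vs. RS). Of the 13284 genes with enough reads to be tested (CPM over 1 in at least 3 cows of a diet), 5 (0.0376%) had all AH cows below all CS cows, 9 (0.0678%) had all AH cows below all RS cows, and S100A9 was the 1 gene (0.00753%) below both.

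S100A8 followed the same order with a smaller step. Its lowest, median and highest values were 2052, 2868 and 4575 CPM in AH. They were 4380, 6138 and 10792 CPM in CS, and 4800.4, 7470 and 10358 CPM in RS. Of the 6 AH cows, 4 lay below all CS cows, while AH 1 (4496 CPM) and AH 2 (4575 CPM) reached the range of CS 3 (4380 CPM) and CS 5 (4527 CPM). All 6 lay below all RS cows. The means were 3239 CPM ± 1048 (SD, n = 6) in AH, 6814 CPM ± 2573 in CS and 7581 CPM ± 2036 in RS. The ratio of means was 2.10-fold higher in CS and 2.34-fold higher in RS than in AH, or -1.07 (SE 0.29) and -1.23 (SE 0.25) for AH on the log2 scale. Over all genes tested, the mean was more than 2-fold lower in AH for 97 genes (0.73%) against CS and for 116 genes (0.873%) against RS. The AH cows are the same in both comparisons. In papilla tissue sequenced as a whole, fewer cells that carry these RNAs and less RNA per cell cannot be told apart.

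**Figure D1:**
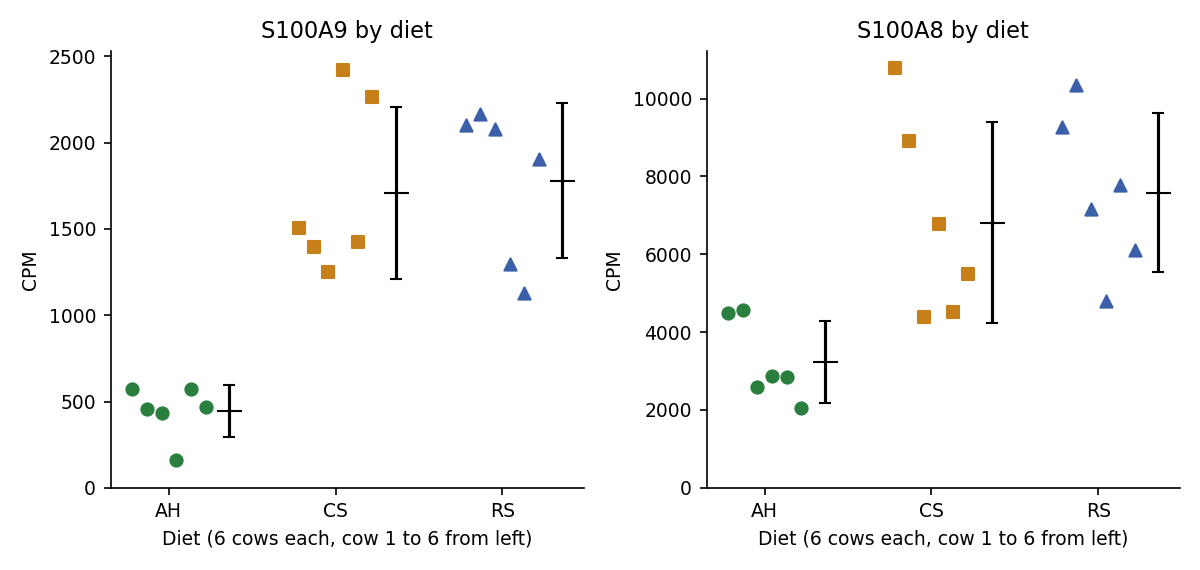
CPM of S100A9 (left) and S100A8 (right) in each cow by diet, with the mean and SD (n = 6) as a bar beside the points and both axes starting at 0. The AH cows reach at most 575.1 CPM of S100A9 against at least 1131 CPM on the straw diets, while 2 AH cows overlap CS for S100A8.

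Both genes together took 0.368% ± 0.110 (SD, n = 6) of the reads on genes in AH, 0.852% ± 0.259 in CS and 0.936% ± 0.231 in RS. The highest single value was 1.25% in RS 2. The lowest was 0.252% in AH 6.

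The 2 straw diets were compared with a test, because their difference was not the reason for the choice of the genes. The test is not fully independent of that choice, as knowing both straw diets to be above AH may favour genes alike between them. For S100A9, RS minus CS was 0.06 on the log2 scale (SE 0.23, 95% interval -0.46 to 0.58, two-sided exact permutation p = 0.762). For S100A8 it was 0.19 (SE 0.27, 95% interval -0.41 to 0.80, two-sided exact permutation p = 0.487). Both genes therefore had the order AH, CS, RS by their means, and the CS and RS neighbours in that order did not differ beyond their spread. The intervals still allow RS to be 1.49-fold higher than CS for S100A9 and 1.74-fold higher for S100A8. After adjustment over the 3 values compared between RS and CS, the permutation p was 0.762 for each.

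S100A9 was the scarcer RNA of the pair by reads in all 18 cows. CPM are not scaled by transcript length, so a ratio of their CPM is a ratio of reads and not of molecules, but it can be compared between cows. The lowest, median and highest values of S100A9 per S100A8 were 0.0559, 0.149 and 0.228 in AH. They were 0.140, 0.300 and 0.411 in CS, and 0.145, 0.248 and 0.312 in RS. S100A9 thus made up 12.6% ± 4.95 (SD, n = 6) of the joint reads in AH, 21.2% ± 6.88 in CS and 19.3% ± 4.06 in RS.

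The fall in AH was deeper for S100A9 than for S100A8, and the ratio was lower in AH. On the log2 scale the mean ratio was -2.91 in AH, -1.96 in CS and -2.09 in RS. AH minus CS was -0.95 (SE 0.40), and AH minus RS was -0.82 (SE 0.35). Without AH 4, the cow with the lowest ratio, these differences were -0.70 and -0.57. The groups overlapped, with 3 of 6 AH cows below all CS cows and 3 below all RS cows, although all 6 lay below the median of either straw diet. RS and CS did not separate by the ratio, where RS minus CS was -0.13 (SE 0.31, 95% interval -0.82 to 0.56, two-sided exact permutation p = 0.686).

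**Figure D2:**
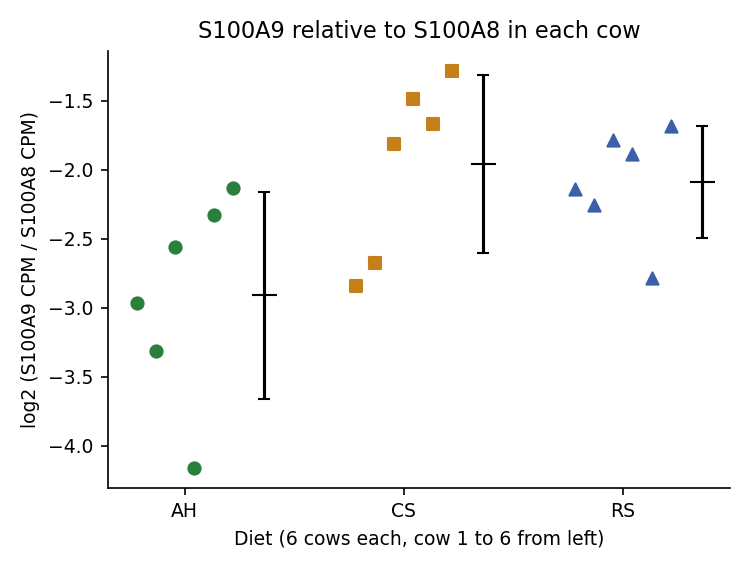
The log2 ratio of S100A9 CPM to S100A8 CPM in each cow by diet, with the mean and SD (n = 6) as a bar beside the points. The AH mean is -2.91 against -1.96 in CS and -2.09 in RS, AH 4 is lowest at -4.16, and CS 1, CS 2, RS 1, RS 2 and RS 5 lie within the AH range.

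Single cows differed in the balance of the pair. AH 4 had 160.8 CPM of S100A9, less than in any other cow, beside 2877 CPM of S100A8, which was near the AH median. CS 1 had the highest S100A8 of all cows (10792 CPM) with 1508 CPM of S100A9. CS 6 had 5500.0 CPM of S100A8 with 2262 CPM of S100A9 and the highest ratio of all cows (0.411). RS 5 had the lowest S100A9 of the straw diets (1131 CPM) beside 7781 CPM of S100A8.

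Within a diet, cows with more S100A8 were not shown to have more S100A9. The levels were taken as log2(CPM + 0.5), and each diet held 6 cows. Pearson's r was 0.19 in AH (rho 0.0857, exact permutation p = 0.717), 0.0545 in CS (rho 0.371, exact permutation p = 0.899) and 0.505 in RS (rho 0.657, exact permutation p = 0.285). Adjusted over the 3 diets, the exact permutation p was 0.899, 0.899 and 0.854. Without RS 5, r in RS was 0.860 (exact permutation p = 0.00833). Without the 2 cows farthest from the median of S100A8, r was -0.374, 0.935 and -0.0154 in AH, CS and RS. Few cows over a narrower range of S100A8 were then left per diet, so these values cannot show which cows set r. Over all 18 cows, with each diet centred on its mean, r was 0.216 (permutation p = 0.428) and rho was 0.271 (permutation p = 0.303). Without CS 1 and AH 2 that r was 0.263. With TMM scaling, which divides each cow by a factor that allows for a few genes taking many reads, it was 0.407 (permutation p = 0.0969), and by diet r was 0.0779 for AH (exact permutation p = 0.892), 0.559 for CS (exact permutation p = 0.260) and 0.675 for RS (exact permutation p = 0.135). The 2 genes lay on the same side of their diet mean in 9 of 18 cows. The within-diet SD was similar for both, at 0.514 for S100A9 and 0.467 for S100A8 on the log2 scale.

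**Figure D3:**
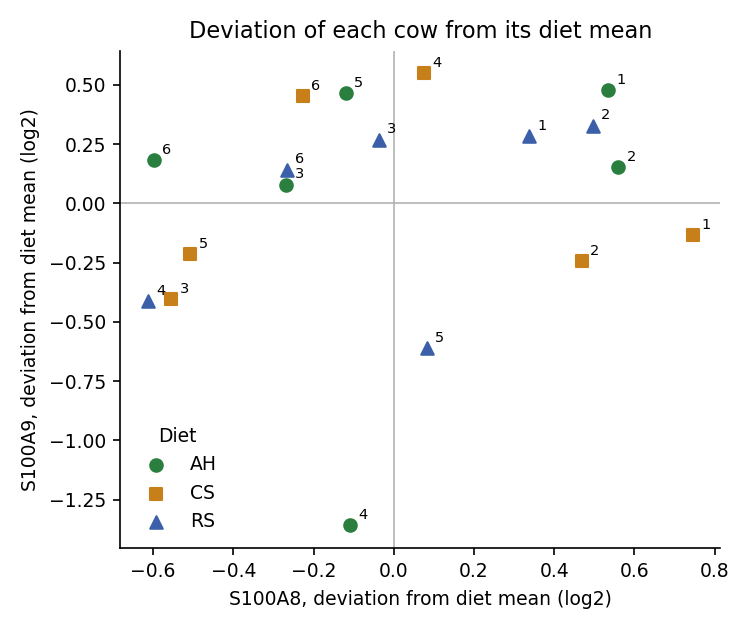
Deviation of each cow from the mean of its diet on the log2(CPM + 0.5) scale, with S100A8 on the horizontal axis, S100A9 on the vertical axis and the cow's number beside each point. The points lie on both sides of 0 for each gene (r 0.216 over 18 cows, and 0.407 with TMM scaling, neither past its test), and AH 4 lies far below the rest for S100A9.

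Each cow was also described by its reads on genes, its number of genes over 1 CPM, its scaling factor (TMM, the trimmed mean of M-values) and its place on the first principal component of all genes, which held 41.0% of the within-diet variance. S100A8 went with the first principal component (r 0.696, permutation p = 0.00425, adjusted p = 0.0340 over 8 relations, rho 0.750 with adjusted permutation p = 0.00776). The relation remained at r 0.744 without CS 2 and RS 5. S100A8 also had r -0.609 with the number of genes over 1 CPM (adjusted permutation p = 0.0742) and r -0.541 with the scaling factor (adjusted permutation p = 0.102). S100A9 had r between -0.359 and 0.221 with these 4 measures, and none passed (adjusted permutation p at least 0.231).

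The relation of each gene to S100A8 or S100A9 was then measured within diets. A limma model with a term per diet gave the change of a gene, on the log2 scale, for 1 log2 unit more of S100A8 and, in a separate model, of S100A9. With S100A8, 2366 of 13283 genes (17.8%) varied at an adjusted p under 0.05, of which 253 (1.9%) had a positive and 2113 (15.9%) a negative slope. With S100A9, 0 genes passed, and the smallest adjusted p was 0.742. At an unadjusted p under 0.05, 393 genes (2.96%) had a positive and 149 (1.12%) a negative slope on S100A9. On the recovered reads, edgeR called 1 gene and DESeq2 called 2 genes for S100A9. For S100A8, edgeR called 806 positive and 882 negative slopes, and DESeq2 1541 positive and 1537 negative. The excess of negative slopes was thus not seen with DESeq2 and was small with edgeR. Of the 2366 genes, edgeR shared 1130 and DESeq2 1700. The median r over all genes tested was 0.0620 with S100A9 and -0.267 with S100A8, and 61 genes (0.459%) had an r beyond 0.6 in either direction with S100A9 against 2529 (19.0%) with S100A8.

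The count for S100A8 rested on single cows and its balance on the scaling. Without CS 1 it was 0 genes, with 489 positive and 2761 negative slopes at an unadjusted p under 0.05. It was 656 without CS 2, 712 without CS 3, 1120 without CS 5 and 1337 without RS 4. With TMM scaling, 1578 genes had a positive and 2007 a negative slope, and the median slope over all genes moved from -0.24 to -0.03. Of these 3585 genes, 1920 were among the 2366 genes above, all in the same direction. The first principal component moved with S100A8 across the cows (r 0.696, where the sign of the component is arbitrary). The number of genes over 1 CPM had r -0.609, which did not pass (adjusted permutation p = 0.0742), and -0.466 without CS 1 and CS 2. The part of either measure in this count was not tested.

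**Figure D4:**
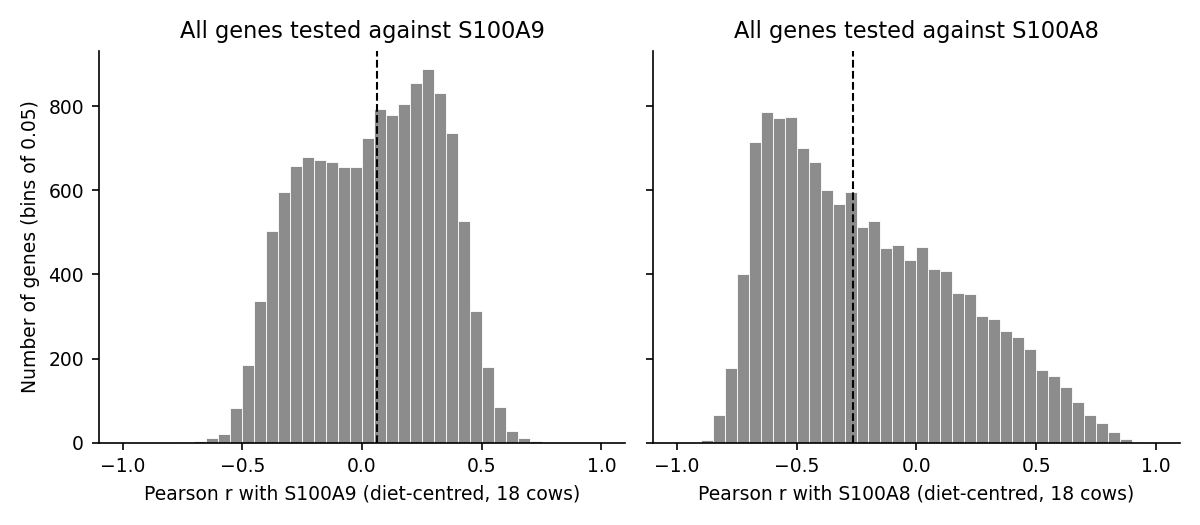
Number of genes, in bins of 0.05, by their Pearson r with S100A9 (left) and with S100A8 (right) over the diet-centred log2 values of 18 cows, with the median as a dashed line. The genes are centred near 0 for S100A9 (median 0.0620) and shifted to negative r for S100A8 (median -0.267).

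To compare the 2 genes directly, both were placed in 1 model, each in units of its own within-diet SD, a comparison chosen after the data had been seen. The slopes on S100A9 and S100A8 differed at an adjusted p under 0.05 for 4290 of 13282 genes (32.3%). The slope on S100A9 was the higher for 3655 genes (27.5%) and the lower for 635 (4.78%), and with TMM scaling for 2674 and 2248. The count lay between 3100 and 4862 when any 1 cow was left out. Many genes thus stood in a different relation to the 2 subunits within diets, while the direction in which they differed was balanced more evenly under the other scaling. In the same model the slope on S100A8 passed for 4026 genes (30.3%) and that on S100A9 for 651 (4.9%). How far the differing slopes reflect S100A8 alone was not tested.

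The gene most like S100A8 over all genes tested was ENSBTAG00000012638, whose symbol is not given in the sources used here. Its r was 0.938 over the 18 diet-centred values (rho 0.924), and it lay between 0.928 and 0.952 when any 1 cow was left out. Its slope was 0.75 (SE 0.17, limma adjusted p = 0.0148), a call that was lost without CS 1, where r was 0.930. It was also one of the most abundant RNAs of the papillae, with 18221 CPM ± 4226 (SD, n = 6) in AH, 26929 CPM ± 8013 in CS and 30110 CPM ± 8319 in RS. Its r with S100A9 was only 0.189. For S100A9 the gene with the highest r was ENSBTAG00000025001 (r 0.736, slope 0.26, SE 0.10, limma adjusted p = 0.742), a gene of 90.3 CPM on average with nearly equal means of 87.6, 89.7 and 93.5 CPM in AH, CS and RS.

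Symbols were available for 73 genes, the members included, which the study had picked on these samples for their difference between diets, so the 71 others are no random draw from the transcriptome. Of the 71, 0 passed the test for S100A9 and 5 (7.04%) for S100A8, all with a negative slope, below the 15.9% of all genes tested that had a called negative slope. Their median r was 0.212 with S100A9, beside 0.0620 over all genes tested, and -0.296 with S100A8, close to the -0.267 over all genes tested.

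The 3 named genes most like S100A9 within diets belonged to the list of epithelial antimicrobial genes. LAP, the lingual antimicrobial peptide (a beta-defensin of cattle), had r 0.617. PI3, elafin, an inhibitor of neutrophil elastase, had r 0.583, and TAP, the tracheal antimicrobial peptide, had r 0.567. They were followed by SLC6A14, an amino acid transporter (r 0.549), TGM3, a transglutaminase that cross-links the cornified envelope (r 0.519), CFB, complement factor B (r 0.508), AHSG, a plasma glycoprotein (r 0.503), PRSS53, a serine protease (r 0.495), C2 of the complement cascade (r 0.450) and TTR, transthyretin (r 0.445). None passed the test (limma adjusted p = 0.742 for each). LAP and TAP have near-identical relatives in the genome, and reads with several mapping hits had been removed, so their levels are uncertain.

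This likeness leaned on AH 4, the cow with the least S100A9. LAP stood at 0.229 CPM there, little above the floor of 3 reads, against a median of 20.6 CPM in AH, 38.1 CPM in CS and 53.8 CPM in RS. Without AH 4 the r of LAP with S100A9 was 0.187 and that of TAP was 0.248, while that of PI3 was 0.457 and that of SLC6A14 was 0.469. TGM3 had r 0.293 and CFB r 0.263 without it. Among the lowest, EPHX2, the soluble epoxide hydrolase, had r -0.578 with S100A9 and -0.0835 without AH 4. ID1 (r -0.362), DNAJA1 (r -0.270), HSPA1A (r -0.268) and ANKRD24 (r -0.255) were the next lowest.

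Without centring on the diets, which leaves the diet differences in, the named genes with the highest r with S100A9 over the 18 cows were TAP (0.858), PRSS53 (0.857), AIF1 (0.808), PI3 (0.794) and LAP (0.717). These values are a description, because both S100A9 and these genes had been chosen for their difference between diets. TAP had a mean of 38.6 CPM ± 39.8 (SD, n = 6) in AH, 332.5 CPM ± 297 in CS and 325.6 CPM ± 164 in RS. PRSS53 had a median of 8.55 CPM in AH, 76.8 CPM in CS and 53.2 CPM in RS. PI3 had a mean of 64.2 CPM ± 50.1, 391.3 CPM ± 385 and 468.3 CPM ± 281. In relation to its mean, the spread of TAP and PI3 between cows of a diet was larger than that of S100A9.

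For S100A8, the named genes with the highest r were those of HSPH1 (0.550), Metazoa_SRP (0.535), HSPB8 (0.519), BAG3 (0.498), ZFAND2A (0.483) and DNAJA1 (0.476), followed by CFB (0.377), RGS1 (0.367), HSPA1A (0.319) and TAP (0.306). CFB and TAP were thus among the 10 highest for both subunits, while DNAJA1 and HSPA1A were among the 5 lowest for S100A9. HSPH1, HSPB8, BAG3, DNAJA1 and HSPA1A are chaperones or their partners, and Metazoa_SRP is the RNA of the signal recognition particle. HSPH1 came closest to the threshold, with a slope of 1.70 (limma adjusted p = 0.0505), and passed with TMM scaling (slope 1.83, limma adjusted p = 0.00772). HSPB8 (adjusted p = 0.0103), BAG3 (0.0116), DNAJA1 (0.0300) and ZFAND2A (0.0278) also passed under limma with that scaling, as did Metazoa_SRP (0.0281). With it, 1578 of 13265 genes had a called positive slope on S100A8. On the deposited CPM none of these named genes passed, and without CS 1 no gene did. HSPH1 was uneven between cows, with a median of 238.5 CPM and a highest value of 2224 CPM in CS.

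Within diets, 5 of the 71 other named genes (7.04%) had a called negative slope on S100A8. This was a smaller share than the 15.9% of all genes tested, so a negative slope was not particular to them. PADI1, which turns arginine into citrulline in keratins and other proteins, had r -0.698 and a slope of -2.06 (SE 0.50, limma adjusted p = 0.0171). ARG1, arginase, had r -0.671 and a slope of -1.74 (SE 0.44, limma adjusted p = 0.0194). TPRG1 (r -0.615, limma adjusted p = 0.0309), VNN2, a pantetheinase (r -0.592, limma adjusted p = 0.0381), and TGM2, the tissue transglutaminase (r -0.591, limma adjusted p = 0.0366), also passed. With TMM scaling the slopes stayed negative, and PADI1 (limma adjusted p = 0.0492), ARG1 (0.0324) and TGM2 (0.0333) passed, whereas TPRG1 (0.0521) and VNN2 (0.0546) did not. Without CS 1 none of the 5 passed, as no gene did, although r was still -0.733 for PADI1 and -0.571 for ARG1.

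**Figure D5:**
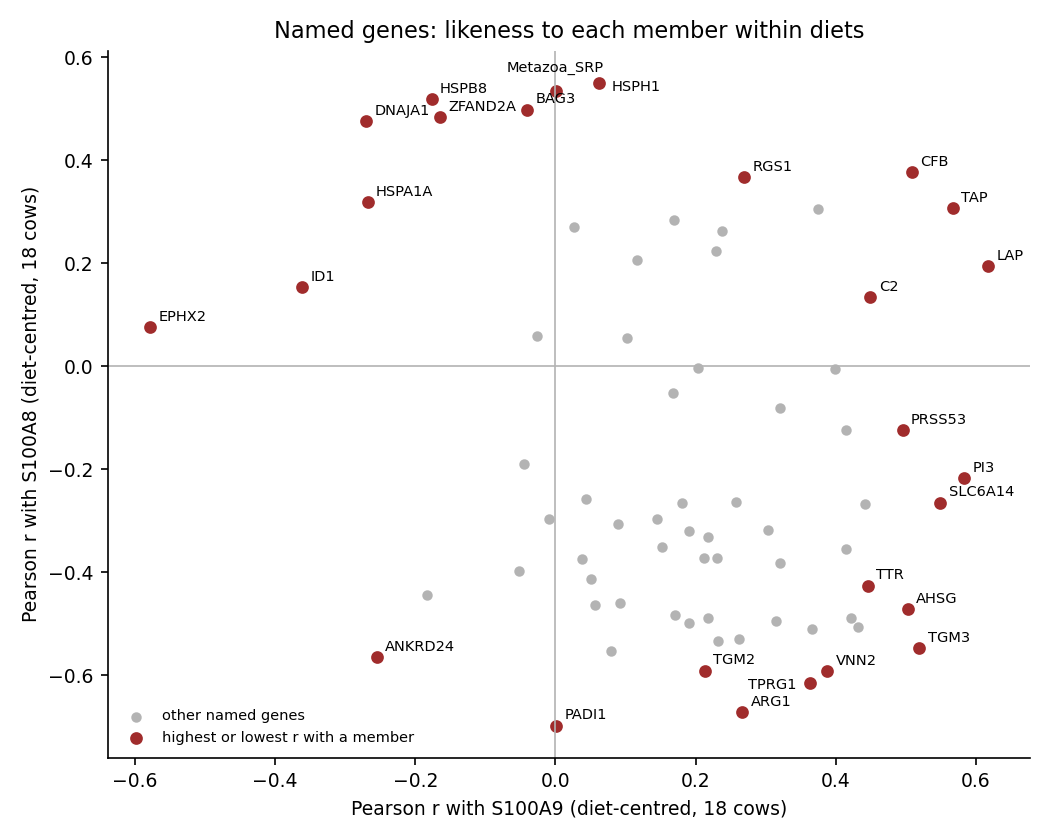
Pearson r of the 71 other named genes with S100A9 (horizontal) and with S100A8 (vertical) over the diet-centred log2 values of 18 cows, with the genes of highest or lowest r labelled. LAP, PI3 and TAP lie to the right, HSPH1, HSPB8 and BAG3 at the top, and PADI1 and ARG1 at the bottom.

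TGM3 stood on opposite sides of the 2 subunits, with r 0.519 with S100A9 and r -0.548 with S100A8. In the model with both, chosen after the data had been seen, 651 of 13282 genes (4.9%) had a slope on S100A9 past the test, a count that was 244 with TMM scaling, 148 without CS 4 and 9 without RS 5. For TGM3 the slope per SD was 0.64 on S100A9 (limma adjusted p = 0.0165), and the slope on S100A9 minus that on S100A8 was 1.30 (limma adjusted p = 0.000175). PI3 had 0.97 per SD on S100A9 (limma adjusted p = 0.0376) and a difference of 1.50 (limma adjusted p = 0.00736). The differences of both genes passed without any 1 cow (limma adjusted p at most 0.00167 for TGM3 and 0.0437 for PI3) and with TMM scaling (0.00129 and 0.0117). Over all genes, 4290 of 13282 (32.3%) passed for the difference, so it was not particular to these 2. The slope per SD on S100A8 was -0.66 for TGM3 (limma adjusted p = 0.000856) and -0.53 for PI3 (limma adjusted p = 0.122). Their slopes on S100A9 were less firm, as that of TGM3 passed in 16 and that of PI3 in 10 of 18 fits without 1 cow, and without RS 5 neither did (limma adjusted p = 0.0580 and 0.117). For LAP the slope was 0.96 (limma adjusted p = 0.0615) and the difference 0.85 (limma adjusted p = 0.162), and for TAP they were 0.82 (0.101) and 0.52 (0.411). The 2 defensins were thus not shown to stand in a different relation to the 2 subunits.

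By gene list, the pathway around calprotectin could be followed only in part. Of 196 symbols in 12 lists, 16 could be paired with an identifier, and no gene could be paired for 7 lists, which held the other S100 genes, receptors and signalling, transcriptional regulators, and markers of neutrophils, basal keratinocytes, fibroblasts and vessels, and lymphocytes. Neutrophil RNA in the papillae was therefore not analysed here. Of the epithelial antimicrobial genes, 6 of 24 were paired (TAP, LAP, PI3, LPO, SAA1 and DUOXA2). All 6 had a positive r with S100A9, with a median of 0.504 beside 0.212 over the 71 named genes, of which 81.7% had a positive r, and 0.0620 over all genes tested. Of the 6, 3 reached an unadjusted p under 0.05 and 0 passed the adjusted threshold, and r fell to 0.187 for LAP and 0.248 for TAP without AH 4. With S100A8, 3 were positive and 3 negative, with a median of 0.0956, and the slope of DUOXA2 turned from negative to positive with TMM scaling. The 2 most abundant of the 6 were PI3 with a mean of 307.9 CPM and TAP with 232.3 CPM.

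Of the suprabasal and cornified layer genes, 5 of 26 were paired (TGM3, SLURP1, DSG1, PADI1 and KRT36). Their means ran from 8.20 CPM for KRT36 to 917 CPM for TGM3. Symbols were available only for genes the study had picked, so detection of these 5 was fixed in advance and is no check of the tissue. All 5 had a positive r with S100A9 (median 0.102, 0 called), although the slopes of KRT36 and PADI1 on it turned negative with TMM scaling, and 4 of 5 had a negative r with S100A8 (median -0.306, PADI1 called). Over all genes tested, 69.5% had a negative r with S100A8, the median was -0.267 and 15.9% were called negative, so the counts and medians with S100A8 here and in the lists that follow lay near those of all genes. The 3 paired genes of activated keratinocytes (PI3, SLC6A14 and TGM2) had a median r of 0.549 with S100A9 and -0.265 with S100A8, with TGM2 called. The study had grouped calcium-binding genes out of its AH vs. CS difference, with S100A8 and S100A9 among them. The 7 others (AIF1, DSG1, EFEMP1, LPO, PADI1, RCN1 and TGM3) had a median r of 0.367 with S100A9 (0 called) and -0.296 with S100A8 (PADI1 called).

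AIF1, a calcium-binding protein of macrophages, was the 1 gene paired from the list of monocyte and macrophage markers. Its lowest, median and highest values were 6.84, 16.3 and 28.2 CPM in AH, 24.8, 35.8 and 43.4 CPM in CS, and 26.4, 34.7 and 42.1 CPM in RS. The AH range reached into the straw ranges at its top. Within diets its r was 0.374 with S100A9 and 0.306 with S100A8, and neither slope passed (limma adjusted p = 0.742 and 0.387). CD5L, a protein secreted by macrophages that was on no list and was chosen after its values were seen, had r 0.171 with S100A9 and -0.483 with S100A8, and neither slope passed (limma adjusted p = 0.817 and 0.0951). The part of such cells in the levels of S100A8 and S100A9 was not tested.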

How the data were processed

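RNA of rumen papillae of 18 cows (6 on each of AH, CS and RS) had been read in pairs of 100 bp. With TopHat2 the authors aligned these to UMD3.1, removed reads with over 2 mismatches or several mapping hits, counted genes with HTSeq and deposited CPM for 24616 genes. The labels' extraction text speaks of rectal tissue and a total RNA kit, unlike the paper, and no batch is named, so none could be modelled.

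S100A8, S100A9 and all gene lists were chosen with earlier results of these data known. CPM were whole multiples of 1 read (100% at a tolerance of 0.02), which gave 16099131 to 32252177 reads per cow and a floor of 3 reads of 0.0930 to 0.186 CPM, for counting error only. Each replicate is labelled as a separate cow, and p-values measure the spread between these cows. Pairs of cows of one diet differed beyond sampling noise (chi-square per degree of freedom 40.6 to 315.8 over 45 pairs).

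The 13284 genes that exceeded a CPM of 1 in 3 or more of the 6 cows of any diet entered limma 3.58.1 (R 4.3.3) as log2(CPM + 0.5), under an intensity trend and Benjamini-Hochberg adjustment. Fold changes on that scale understate changes of low genes. For the relation to a member, the model held diet and the member's diet-centred log2 level, and the member itself was left out. Ratios of mean CPM are given with a standard error. RS vs. CS was tested by exact two-sided permutation (smallest possible p 0.00216), and correlations by exact permutation at 6 cows and 100000 permutations within diets at 18. Named genes were the 10 with the highest and the 5 with the lowest r with each member, the 5 with the highest r with S100A9 without centring, and up to 4 per list past the test or otherwise the 2 most abundant. ENSBTAG00000012638 and ENSBTAG00000025001 were named as the most like over all genes, after their values were seen. Alternatives changed the pseudocount, filter, scaling, variance trend and replicate block, left out each cow, and used edgeR 4.0.16 and DESeq2 1.42.0 on the recovered reads. On simulated data of 13121 genes with 200 changed, the slope test on S100A9 made 185 calls, 9 of them false. There it found 73.3% of slopes of 1 on the log2 scale. Whether these rates hold for the measured levels of the 18 cows was not tested.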

Additional observations from a re-analysis of the deposited data

Results flagged for a closer look

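AH 4 had 160.8 CPM of S100A9, far from the other AH cows, whose values lay between 436.2 and 575.1 CPM. The gap to the nearest cow was 0.665 of the range of the diet, above the limit of 0.625 for 6 samples (Dixon's test). Chance flags about 1 in 20 groups, and 9 groups were tested. The value rested on 3504 reads. In the same cow S100A8 had 2877 CPM, LAP was at 0.229 CPM, and the number of genes over 1 CPM was 12445, the lowest in AH. The cause was not tested.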

How the results depend on the processing

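Over all alternatives, 411 of 480 recomputed values moved little. For this, a tested value had to keep its direction and side of the threshold. A count of genes had to stay within 1.5 times, and another value within 1 SD. That share is no measure of stability. Leaving out 1 of 6 cows can hardly move a mean by 1 SD, and total, positive and negative counts were scored separately. For genes that vary with S100A9 (0), a replicate block gave 2, edgeR 1 and DESeq2 2, and leaving out a cow 0 to 1. For S100A8 (2366), no filter gave 1547, TMM scaling 3585 and the block 0, and leaving out a cow 0 (CS 1) to 2713, with 0 to 321 positive and 0 to 2527 negative. DE genes in the main fit numbered 1 for AH vs. CS, 1 for AH vs. RS and 0 for RS vs. CS. The 1 gene was S100A9 in both, which was chosen with that difference known, so its call is no test. DE genes of AH vs. CS numbered 5 by DESeq2 and 1 to 2 without a cow. For AH vs. RS they numbered 2 with the block, 7 by DESeq2 and 1 to 5 without a cow, and for RS vs. CS 1 without a filter and 0 to 6 without a cow. Slopes that differed numbered 2342 with the block and 3100 to 4862 without a cow. Genes that vary with S100A9 with S100A8 in the model (651) numbered 244 with TMM scaling, 1899 with the block and 9 (RS 5) to 1756 (AH 6) without a cow, and 205 without AH 1, 259 without CS 1, 382 without CS 2, 148 without CS 4, 306 without CS 6, 370 without RS 2, 353 without RS 3 and 422 without RS 6.

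The block rests on replicate numbers that do not pair the cows: the correlation of deviations of same-numbered cows was -0.484 to 0.712 over 18 pairs (median 0.203), and 5 of 18 cows were most like a cow of their own number. The r of S100A8 with S100A9 in CS was -0.0693 on the CPM scale and 0.559 with TMM scaling, and over the centred cows 0.407 with TMM scaling. Without a cow, r was -0.000741 to 0.362 in AH, -0.272 to 0.236 in CS, 0.230 to 0.860 in RS and 0.143 to 0.280 over the centred cows. RS minus CS was -0.0197 to 0.18 for S100A9 (log2 ratio of means -0.0175 to 0.18), 0.08 to 0.34 for S100A8 (0.04 to 0.33) and -0.31 to 0.0094 for the ratio. For AH against CS and RS, the log2 ratio of means was -2.03 to -1.77 and -2.10 to -1.83 for S100A9, -1.20 to -0.89 and -1.35 to -1.12 for S100A8, and the difference in the log2 ratio of S100A9 to S100A8 -1.13 to -0.70 and -0.98 to -0.57. Causes were not tested. Depth limits neither gene, while 6 cows per diet limit r within a diet.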
